A study of Mus musculus with 6 samples.

Results

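The mitochondrial ribosome makes the proteins that mitochondrial DNA encodes, and its own proteins are all encoded in the nucleus. The group described here is 80 such genes: every tested gene whose symbol is Mrpl or Mrps followed by a number, plus Dap3 and Chchd1, 2 small-subunit proteins whose symbols do not show it. They are 80 of the 17135 genes tested on whole-kidney arrays. By the known structure of the mammalian particle, 51 belong to the large subunit and 28 to the small subunit. Symbol and structure disagree for 3 of them. Mrps30 and Mrps18a sit in the large subunit, and Mrps36 is known as a component of the alpha-ketoglutarate dehydrogenase complex and is counted in neither subunit. The rule uses names alone, and no measured value enters it.

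The Pck1-CKO group was 3 kidney RNA samples from C57BL/6J mice of genotype Pck1 flox/flox with the γGT-Cre transgene (tg/+), killed at 32 weeks of age. γGT-Cre acts in the proximal tubule, so other kidney cells keep an intact Pck1 gene, and Pck1 encodes the gluconeogenic enzyme phosphoenolpyruvate carboxykinase. The WT group was 3 kidney RNA samples from littermates matched for age and sex. The breeding also gave controls with floxed Pck1 alleles on both or on one chromosome (flox/flox or flox/+), the second of these also with γGT-Cre tg/+, and the labels do not say which of these a WT sample came from. Each sample was labelled with Cy3 and read on its own 1-colour array. Whether each sample is its own mouse is not stated in the labels. A p-value therefore covers the spread seen among these 6 samples, and that spread may be technical.

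Mitochondrial ribosomes descend from bacterial ones. Part of their proteins have a bacterial counterpart, and the rest were added during the evolution of mitochondria. The small subunit holds the messenger RNA and decodes it, while the large subunit joins the amino acids and carries the exit tunnel for the new chain, next to the inner membrane. The products are core subunits of the respiratory chain and of ATP synthase, and the proximal tubule depends on oxidative metabolism for its ATP. Genes for nuclear-encoded mitochondrial proteins are known to be bound by nuclear respiratory factor 1 (NRF1), by the ETS factor GABP and by YY1.

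The promoters of the 3 members that passed the test below are given first, to show the stretch of DNA each call belongs to. Each runs from 250 bases before to 50 bases after the annotated start, from RefSeq on GRCm38.p6, 5′ to 3′ on the gene's strand. Capitals mark the letters GCATGCGC (an NRF1 core), CCGGAAG (an ETS core), AAGATGG (a YY1 core) or GGGCGG (a GC box) on either strand. Mrpl35 lies at chr6:71823735-71824034 on the minus strand, Mrpl36 at chr13:73330759-73331058 on the plus strand and Mrpl23 at chr7:142532782-142533081 on the plus strand.
Mrpl35: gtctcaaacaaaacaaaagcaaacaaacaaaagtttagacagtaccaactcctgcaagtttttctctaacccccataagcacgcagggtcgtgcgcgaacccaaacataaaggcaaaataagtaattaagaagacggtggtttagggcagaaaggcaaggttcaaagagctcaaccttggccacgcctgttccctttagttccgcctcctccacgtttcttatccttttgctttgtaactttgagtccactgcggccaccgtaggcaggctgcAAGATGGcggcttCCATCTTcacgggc
Mrpl36: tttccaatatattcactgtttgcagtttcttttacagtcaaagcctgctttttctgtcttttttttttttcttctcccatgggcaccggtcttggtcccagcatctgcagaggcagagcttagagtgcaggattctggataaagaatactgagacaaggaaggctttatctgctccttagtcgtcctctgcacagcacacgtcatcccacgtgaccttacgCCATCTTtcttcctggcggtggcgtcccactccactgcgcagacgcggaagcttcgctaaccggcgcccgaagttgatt
Mrpl23: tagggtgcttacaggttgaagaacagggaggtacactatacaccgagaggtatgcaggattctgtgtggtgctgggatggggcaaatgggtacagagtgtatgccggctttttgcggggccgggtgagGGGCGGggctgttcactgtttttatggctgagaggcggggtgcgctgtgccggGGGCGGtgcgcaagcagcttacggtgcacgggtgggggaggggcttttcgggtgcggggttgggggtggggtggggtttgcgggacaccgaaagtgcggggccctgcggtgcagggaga
The Mrpl35 window holds the YY1 letters on both strands, just past the start. Mrpl36 holds them once, 29 bases upstream. Mrpl23, which was lower in Pck1-CKO, holds none of the NRF1, ETS or YY1 letters and has 2 GC boxes.

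Levels below are log2 of the processed signal minus the 75th percentile of the array, and a change is the Pck1-CKO mean minus the WT mean on that scale. A gene is said to have passed the test, or to be called, at a Benjamini-Hochberg adjusted p below 0.05 over all genes tested in limma. Pck1 itself is read by 1 probe, and no source used here says whether that probe lies in the deleted stretch. Its level was 6.44, 6.60 and 6.90 in the arrays labelled Pck1-CKO, against 6.29, 6.32 and 5.63 in the arrays labelled WT. The probe was not lower in Pck1-CKO (0.56 ± 0.22 SE, adjusted p = 0.152), so the groups are taken from the labels throughout. In whole-kidney RNA, fewer cells of a type and less RNA per cell cannot be told apart. All 11 kidney markers were well above background on all 6 arrays. Between 37118 and 38707 probes per array were well above background, and the number of arrays limits the precision. All 6 arrays shared 1 slide, with Pck1-CKO in row 2 and WT in row 1, so an effect of the row cannot be told apart from one of genotype.

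Markers of fat tissue differed between the groups. Of 7 brown fat markers tested, 5 were called higher in Pck1-CKO (71.4%, beside 4.34% of all genes), with a median change of 3.83. Their summed linear level was 49.9 to 54.4 in Pck1-CKO and 19.0 to 21.5 in WT. Most of the WT sum was Cox7a1, which did not pass (change 0.044, adjusted p = 0.503). Of 8 fat cell markers, 2 were called higher (25%), with sums of 75.3 to 123.7 in Pck1-CKO and 14.7 to 30.6 in WT. Among 6 leukocyte markers, 1 was called lower (16.7%, beside 3.7% of all genes). The medians of the brown fat and fat cell lists were 2.97 to 4.23 and 2.02 to 3.44 in the fits that left out 1 array, but without Pck1-CKO 1, Pck1-CKO 2 or WT 2 no marker of either list was called, while without WT 1 the calls numbered 4 for brown fat and 0 for fat cells. Their part in the results below was not tested. The array named WT 3 stood apart in the mitochondrial ribosome genes, so the main results are given with and without it.

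Most mitochondrial ribosome genes differed little between Pck1-CKO and WT kidneys. All 80 members were well above background on all 6 arrays, so all passed the filter on dim probes. Only 3 passed the test, Mrpl35 and Mrpl36 higher and Mrpl23 lower in Pck1-CKO. That is 3.75% of the members, beside 8.04% of all genes tested. For calls higher in Pck1-CKO the background is 4.34% of all genes, and for calls lower it is 3.7%.

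The members' changes were small and mostly above 0. Their median was 0.046, the quartiles were 0.0020 and 0.11, and the whole range was -0.22 to 0.48. The median over all genes tested was 0.0091. The change was above 0 for 61 members and below 0 for 19, or 76.2% above 0 beside 52.2% of all genes. That count rests on the scaling: it was 46 of 80 after quantile normalization and 78 of 80 with the array median as scale. For 76 members the 95% confidence interval of the change lay within 1.25-fold either way, beside 53.4% of all genes. With quantile normalization 78 members did so, and with the array median 57. The 4 members whose interval reached past 1.25-fold were Mrpl35, Mrpl36, Mrps18b and Mrps23.

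At an unadjusted p below 0.05, 16 members were higher and 1 was lower, 21.2% of the members beside 31.2% of all genes. The 2 groups of arrays did not overlap for 19 members, 17 of them higher (beside 21.9% of all genes) and 2 lower (beside 16.4%) in Pck1-CKO. That is 23.8% of the members, beside 38.3% of all genes. These counts rest on the scaling too. After quantile normalization 32 members did not overlap (40%, beside 37.2% of all genes), 20 higher and 12 lower, and with the array median 45 did not (56.2%, beside 43.7%), 44 higher and 1 lower. At an unadjusted p below 0.05 there were 13 higher and 2 lower after quantile normalization (18.8% of members, beside 29.5% of all genes). At that p, 32 were higher and 1 was lower with the array median (41.2% of members, beside 37.7% of all genes). With the array median as scale, 9 members were called higher and 0 lower in place of 2 and 1, and 17.5% of all genes were called.

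**Figure D1:**
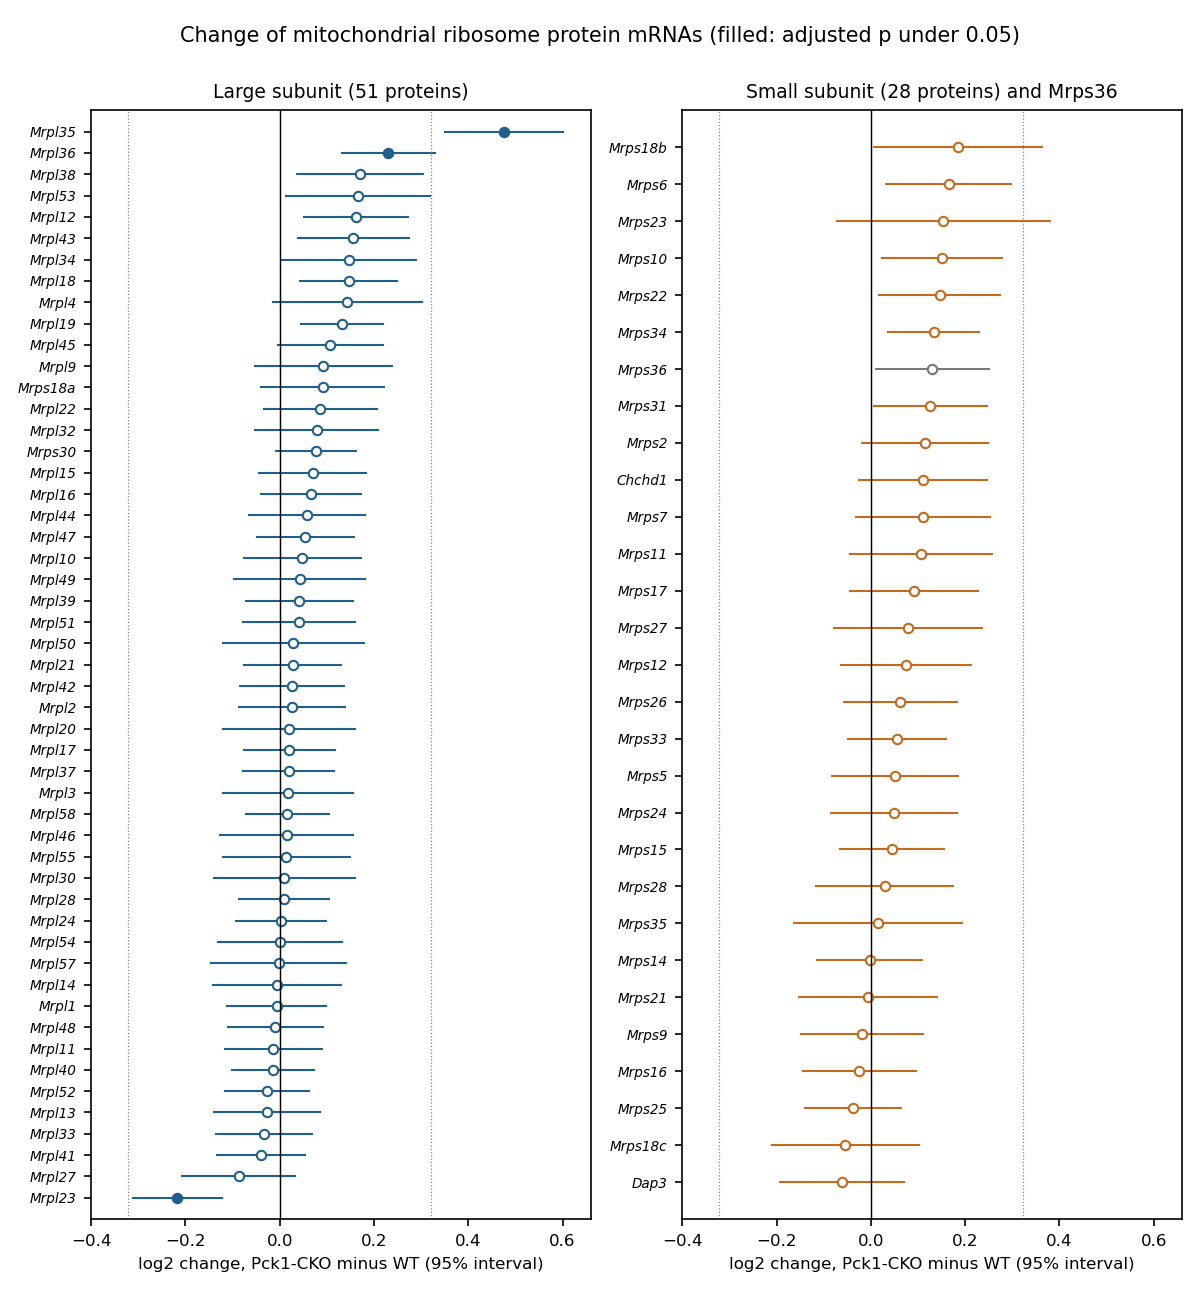
Change of each mitochondrial ribosome gene, Pck1-CKO minus WT on the log2 scale (horizontal axis), with its 95% confidence interval, by subunit; filled points passed the test. Most intervals lie inside the lines at 1.25-fold, and Mrpl35, Mrpl36 and Mrpl23 are the only points that passed.

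Mrpl35 and Mrpl36, counterparts of bacterial L35 and L36, were the 2 members called higher. Mrpl35 had levels of -2.06, -2.06 and -2.05 in Pck1-CKO, against -2.50, -2.62 and -2.48 in WT. All Pck1-CKO arrays were above all WT arrays, with an SD of 0.0065 among the Pck1-CKO arrays and 0.077 among the WT arrays. The Mrpl35 probe was the dimmest of the probes that stand for the members, and whether its low signal affects the change was not tested. The change was 0.48 ± 0.051 (SE, n = 3 per group), or 1.39-fold, with a 95% interval of 0.35 to 0.60 and an adjusted p of 0.0155. With normexp background correction the change of Mrpl35 was 0.31, with an adjusted p of 0.0115. Mrpl36 had levels of 3.64, 3.66 and 3.67 in Pck1-CKO, against 3.43, 3.38 and 3.46 in WT, again with no overlap. It was 0.23 ± 0.040 higher, or 1.17-fold, with an adjusted p of 0.0349.

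Mrpl23, whose bacterial counterpart L23 lies at the mouth of the exit tunnel, was the 1 member called lower. Its levels were 3.99, 3.96 and 4.02 in Pck1-CKO, against 4.21, 4.19 and 4.22 in WT, so every Pck1-CKO array was below every WT array. The change was -0.22 ± 0.038, or 0.860-fold, with an interval of -0.31 to -0.12 and an adjusted p of 0.035. A second probe for Mrpl23 had levels of 3.79, 3.82 and 3.87 in Pck1-CKO, against 4.04, 4.01 and 4.09 in WT. It gave -0.22 and did not pass in the fit over probes (adjusted p = 0.0534, against 0.0431 for the first probe in that fit). Mrpl35 and Mrpl36 have 1 probe each.

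The calls depended on the arrays, the filter and the probe rule. Without the filter on dim probes, Mrpl36 (adjusted p = 0.0845) and Mrpl23 (adjusted p = 0.0874) were not called. With the dimmest probe of each gene they were not called either, at adjusted p of 0.0555 and 0.0686, and the 1 member called lower was Mrpl48. Without WT 1, WT 2, Pck1-CKO 1 or Pck1-CKO 2, no member was called, and the adjusted p of these 3 genes lay between 0.0648 and 0.142. The change of Mrpl35 in those fits was 0.43 to 0.49. Under those same 4 omissions at most 39 genes were called higher and 31 lower over the whole array. Without WT 3, Mrpl35, Mrpl36 and Mrpl53 were called higher and none lower. Without Pck1-CKO 3, Mrpl35 was called higher and Mrpl23 lower. With the array median as scale Mrpl23 was 0.14 lower, at an adjusted p of 0.0706.

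**Figure D2:**
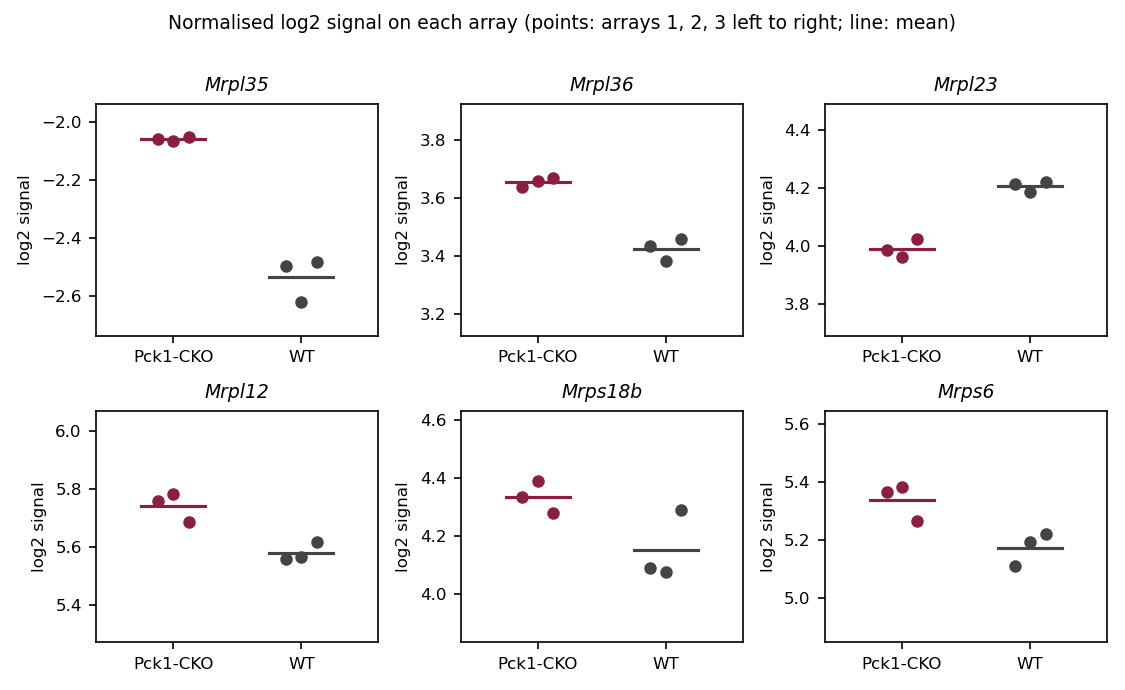
Log2 level of 6 mitochondrial ribosome genes on each array, with Pck1-CKO left of WT; points are arrays 1 to 3 from left to right and lines are group means. Mrpl35, Mrpl36 and Mrpl23 are split by group, while for Mrps18b a WT array reaches the Pck1-CKO values.

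The 3 calls fell in the large subunit, where they are 5.88% of its 51 members, beside 8.04% of all genes. These members had a median change of 0.027, with 39 above 0. After quantile normalization the median was 0.00089 and 27 were above 0. Of the 30 members with a bacterial counterpart 3 were called (10%, beside 8.04% of all genes), with a median change of 0.027. Of the 21 added in mitochondria 0 were called, with 3 higher and 0 lower at an unadjusted p below 0.05 and a median of 0.029. Whether these parts of the subunit differ was not tested. After Mrpl35 and Mrpl36 the highest change was that of Mrpl38, a protein added in mitochondria, at 0.17 ± 0.054 (adjusted p = 0.101). It had levels of 2.18, 2.20 and 2.13 in Pck1-CKO, against 1.98, 1.94 and 2.09 in WT. These groups did not overlap, but WT 3 lay close to the lowest Pck1-CKO array.

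Mrpl12 forms the stalk that recruits translation factors. Its levels were 5.76, 5.78 and 5.69 in Pck1-CKO, against 5.56, 5.56 and 5.62 in WT, a change of 0.16 ± 0.045 that did not pass (adjusted p = 0.0781). Mrpl45, which lies beside the exit tunnel and contacts the membrane, had levels of 3.50, 3.47 and 3.48 in Pck1-CKO, against 3.38, 3.32 and 3.44 in WT (0.11, adjusted p = 0.172). Neither gene's groups overlapped. Mrpl32, which the m-AAA protease matures, was at 2.82, 2.88 and 2.93 in Pck1-CKO, against 2.76, 2.77 and 2.87 in WT (0.079, adjusted p = 0.355). For Mrpl58, a peptidyl-tRNA hydrolase built into the subunit, the change was 0.016 (adjusted p = 0.794) and the sign turned after quantile normalization, at -0.019.

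In the large subunit 13 of 51 members had groups that did not overlap (25.5%, beside 38.3% of all genes). Of these, 11 were higher (beside 21.9% of all genes) and 2 lower (beside 16.4%). Mrpl53, Mrpl43, Mrpl34, Mrpl18 and Mrpl19 were among those higher, and none of these 5 passed the test. Mrpl53, added in mitochondria, was at 4.32, 4.37 and 4.34 in Pck1-CKO, against 4.12, 4.11 and 4.29 in WT (0.17 ± 0.062, adjusted p = 0.137). Mrpl43, also added in mitochondria, was at 4.95, 4.91 and 4.93 in Pck1-CKO, against 4.70, 4.79 and 4.83 in WT (0.16 ± 0.048, adjusted p = 0.0946). In both genes WT 3 was the WT array nearest to Pck1-CKO. Mrpl34, counterpart of bacterial L34, was at 3.995, 4.03 and 4.04 in Pck1-CKO, against 3.79, 3.86 and 3.97 in WT (0.15, adjusted p = 0.150). Mrpl18, counterpart of bacterial L18, was at 3.32, 3.29 and 3.27 in Pck1-CKO, against 3.12, 3.14 and 3.20 in WT (0.15 ± 0.041, adjusted p = 0.0816). Both groups were tight for Mrpl19, counterpart of bacterial L19, at 0.13, 0.12 and 0.13 in Pck1-CKO, against -0.013, 0.012 and -0.016 in WT (0.13 ± 0.035, adjusted p = 0.0723). With the array median as scale Mrpl18, Mrpl19 and Mrpl43 were among the 9 members called higher.

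Mrps30 and Mrps18a carry small-subunit symbols but lie in the large subunit. Mrps30 had levels of 2.57, 2.59 and 2.58 in Pck1-CKO, against 2.50, 2.50 and 2.51 in WT. The groups did not overlap, but the change of 0.077 ± 0.034 did not pass (adjusted p = 0.195). Below 0, after Mrpl23, came Mrpl27 at -0.087 (adjusted p = 0.278) and Mrpl41 at -0.040 (adjusted p = 0.507). Mrpl27, the counterpart of a bacterial protein near the peptidyl transferase centre, was at 4.26, 4.26 and 4.30 in Pck1-CKO, against 4.33, 4.31 and 4.44 in WT, without overlap. Mrpl41 turned to 0.036 with the array median as scale.

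No small-subunit gene passed the test in limma. The 28 members had a median change of 0.068, with 21 above 0 (0.039 and 18 after quantile normalization), and at an unadjusted p below 0.05 there were 6 higher and 0 lower, 21.4% beside 31.2% of all genes. The 16 members with a bacterial counterpart had a median of 0.050, and the 12 added in mitochondria a median of 0.095. Mrps18b, a relative of bacterial S18, is counted among the 12. Mrps18b had the highest change, with levels of 4.33, 4.39 and 4.28 in Pck1-CKO, against 4.09, 4.07 and 4.29 in WT. WT 3 reached the lower Pck1-CKO values, and the change of 0.19 ± 0.072 did not pass (adjusted p = 0.149). Its 3 probes gave 0.19, 0.19 and 0.21.

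Mrps6, counterpart of bacterial S6, had levels of 5.37, 5.38 and 5.26 in Pck1-CKO, against 5.11, 5.19 and 5.22 in WT. Every Pck1-CKO array was above every WT array, and the change was 0.16 ± 0.054 (adjusted p = 0.107). Mrps10, Mrps22, Mrps34 and Mrps31 also had groups that did not overlap. With Mrps6 these are 5 of the 28 small-subunit members (17.9%, beside 38.3% of all genes). All 5 were higher in Pck1-CKO, where 21.9% of all genes were higher without overlap. Mrps10, counterpart of bacterial S10, was at 2.90, 2.94 and 2.93 in Pck1-CKO, against 2.73, 2.73 and 2.86 in WT (0.15, adjusted p = 0.115). Mrps22, added in mitochondria, was at 2.13, 2.12 and 2.13 in Pck1-CKO, against 1.89, 2.02 and 2.04 in WT (0.15, adjusted p = 0.127). In both genes WT 3 was the highest WT array. Mrps34, also added in mitochondria, was at 4.95, 4.90 and 4.95 in Pck1-CKO, against 4.77, 4.80 and 4.83 in WT (0.13 ± 0.039, adjusted p = 0.0872). Mrps31 was at 3.12, 3.16 and 3.13 in Pck1-CKO, against 2.96, 2.99 and 3.09 in WT (0.13, adjusted p = 0.147). Mrps23 was more variable, at 4.14, 4.13 and 4.28 in Pck1-CKO, against 3.92, 3.96 and 4.21 in WT (0.15 ± 0.091, adjusted p = 0.303). The lowest changes were those of Dap3 (-0.062, adjusted p = 0.467), Mrps18c (-0.054) and Mrps25 (-0.038), and all 3 turned above 0 with the array median as scale. Dap3, a GTP-binding protein first known from apoptosis, was at 4.83, 4.83 and 4.86 in Pck1-CKO, against 4.88, 4.83 and 4.99 in WT. Chchd1 was at 4.86, 4.96 and 4.94 in Pck1-CKO, against 4.76, 4.77 and 4.90 in WT (0.11, adjusted p = 0.230).

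Mammals have 3 relatives of bacterial S18. In the counts above Mrps18c stands with the bacterial counterparts, and Mrps18a and Mrps18b with the proteins added in mitochondria. The promoters of all 3 are printed to set beside their changes. Mrps18a lies at chr17:46110754-46111053 on the plus strand, Mrps18b at chr17:35916391-35916690 on the minus strand and Mrps18c at chr5:100798509-100798808 on the plus strand, with capitals as above.
Mrps18a: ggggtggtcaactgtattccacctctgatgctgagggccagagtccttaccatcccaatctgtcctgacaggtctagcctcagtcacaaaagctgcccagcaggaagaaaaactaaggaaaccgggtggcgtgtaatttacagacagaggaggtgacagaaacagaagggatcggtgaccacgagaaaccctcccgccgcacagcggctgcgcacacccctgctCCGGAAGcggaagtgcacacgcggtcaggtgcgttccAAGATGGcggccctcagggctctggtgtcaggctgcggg
Mrps18b: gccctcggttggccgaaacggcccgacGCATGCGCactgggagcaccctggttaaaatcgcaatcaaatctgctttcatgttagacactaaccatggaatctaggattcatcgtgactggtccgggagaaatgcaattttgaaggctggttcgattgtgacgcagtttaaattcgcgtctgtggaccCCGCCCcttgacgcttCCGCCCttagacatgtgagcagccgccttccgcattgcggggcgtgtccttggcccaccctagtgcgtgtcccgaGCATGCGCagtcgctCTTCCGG
Mrps18c: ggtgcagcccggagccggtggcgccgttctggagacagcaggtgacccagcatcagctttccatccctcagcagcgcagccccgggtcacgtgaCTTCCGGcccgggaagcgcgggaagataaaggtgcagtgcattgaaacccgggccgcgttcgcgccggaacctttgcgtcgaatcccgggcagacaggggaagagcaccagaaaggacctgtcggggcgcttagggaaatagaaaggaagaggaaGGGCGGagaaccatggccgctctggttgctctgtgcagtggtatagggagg
Mrps18b has the NRF1 letters at 2 places, the ETS letters once and the GC box letters at 2 places. Mrps18a has the ETS and YY1 letters, and Mrps18c the ETS and GC box letters. Their changes were 0.092 for Mrps18a (adjusted p = 0.288), 0.19 for Mrps18b and -0.054 for Mrps18c (adjusted p = 0.593), and none passed. Mrps18a was at 3.69, 3.74 and 3.68 in Pck1-CKO, against 3.57, 3.55 and 3.70 in WT. Mrps18c was at 3.52, 3.57 and 3.63 in Pck1-CKO, against 3.58, 3.57 and 3.74 in WT. In all 3 genes WT 3 was the highest WT array. Mrps36, of neither subunit, was at 4.14, 4.17 and 4.12 in Pck1-CKO, against 3.98, 3.97 and 4.09 in WT (0.13 ± 0.048, adjusted p = 0.134).

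Set side by side, the large-subunit median change was below that of the small subunit by 0.041 (large minus small, -0.041). Levels of different probes cannot be compared, so only changes are set against each other. On each array, the large-subunit median deviation from the genes' means minus the small-subunit one was -0.014, 0.0018 and -0.019 in Pck1-CKO, against 0.030, 0.020 and -0.013 in WT. These values overlap between the groups through WT 3. The 95% intervals lay within 1.25-fold for 49 of 51 large-subunit genes and for 26 of 28 small-subunit genes. The small-subunit median was above the large-subunit median in every processing alternative run. The array median as scale, the dim-probe filter, the trended robust variance and the replicate block could not change this difference. The other alternatives reused the same arrays, so they are not separate support for it. Split by symbol in place of structure, the difference was -0.050.

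**Figure D3:**
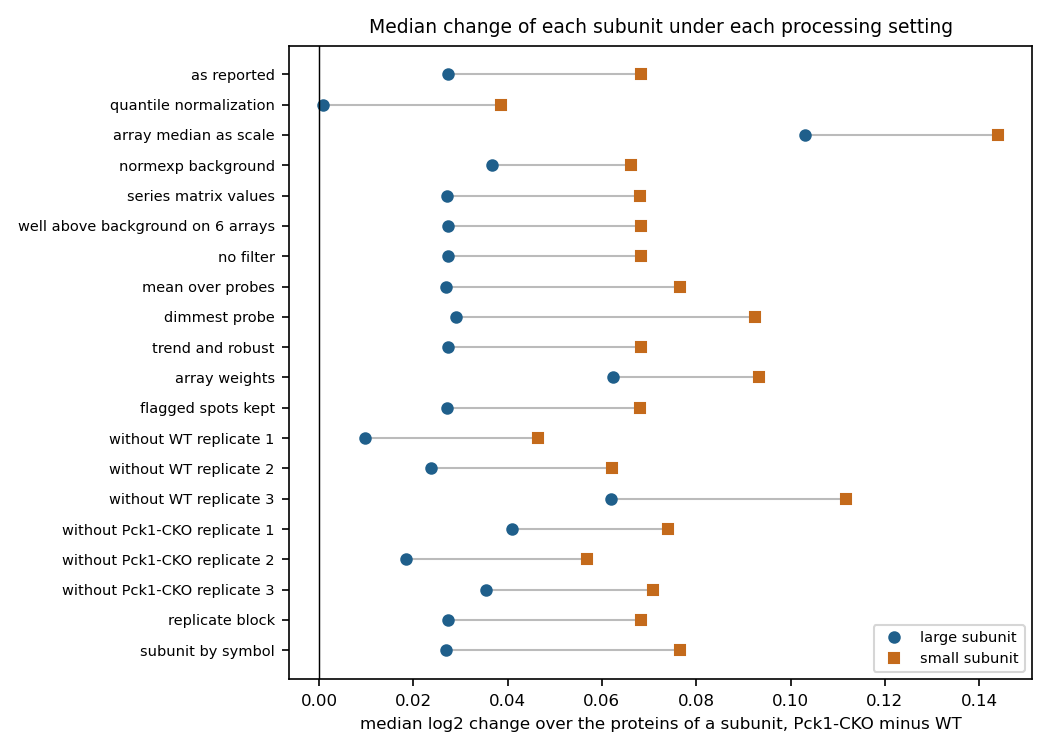
Median log2 change of the large and the small subunit (horizontal axis) under each processing alternative. The small-subunit median lies above the large-subunit median in each one, and both shift most with the array median as scale. Several alternatives could not change the distance between the 2 medians, and all reuse the same arrays.

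WT 3 differed from the other WT arrays across the members. It was the highest WT array for 75 of 80 members (93.8%), beside 44.3% of all genes, with Mrpl19, Mrpl39, Mrpl47, Mrpl58 and Mrps33 as the exceptions. In the large subunit the median deviation from the genes' means was 0.0091, 0.034 and 0.019 on the Pck1-CKO arrays, against -0.061, -0.043 and 0.037 on the WT arrays. In the small subunit it was 0.024, 0.032 and 0.038 in Pck1-CKO, against -0.091, -0.064 and 0.049 in WT. By these medians WT 3 lay above the Pck1-CKO arrays in both subunits, while WT 1 and WT 2 lay below them. In the large subunit WT 3 was only just above Pck1-CKO 2 (0.0365 against 0.0342). Gene by gene, WT 3 was above the Pck1-CKO mean for 31 of 51 large-subunit and 16 of 28 small-subunit members. Among all genes tested this held for 8589 of 17135.

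All 3 Pck1-CKO arrays were above both WT 1 and WT 2 for 53 members (66.2%), beside 31.8% of all genes. WT 1 was the lowest of all 6 arrays for 43 of 80 members, beside 3591 of 17135 genes tested. The median SD of a member was 0.028 among the Pck1-CKO arrays and 0.069 among the WT arrays. Without WT 3 the large-subunit median was 0.062 and the small-subunit median 0.11, each more than 1.5 times its value with all arrays. Without WT 1 they were 0.0098 and 0.046. WT 1 also had the lowest summed fat cell markers, 14.7, beside 30.6 and 27.7 in WT 2 and WT 3.

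**Figure D4:**
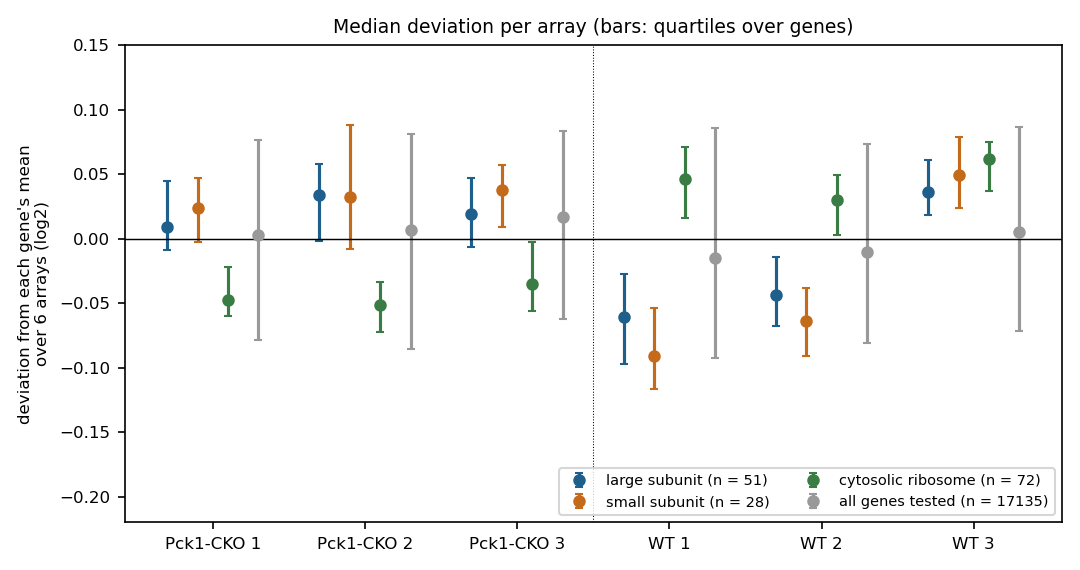
Median deviation from each gene's mean over all arrays (log2, vertical axis) for each array, Pck1-CKO left of WT, for the 2 subunits, cytosolic ribosome genes and all genes tested; bars are quartiles over genes. In both subunits the medians of WT 1 and WT 2 lie below those of the Pck1-CKO arrays. The WT 3 median lies above them, in the large subunit only just above Pck1-CKO 2. The medians of cytosolic ribosome genes are below 0 on all Pck1-CKO arrays.

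Cytosolic ribosome genes and complex I genes are given for comparison, with no test of the difference. Of 72 cytosolic ribosome genes, 1 was called higher and 1 lower (2.78%, beside 8.04% of all genes). Their changes were below 0 for 69, with a median of -0.084 (42 below 0 and a median of -0.0086 with the array median as scale). Their median deviation was -0.048, -0.052 and -0.035 in Pck1-CKO, against 0.047, 0.030 and 0.062 in WT. The groups did not overlap for 51 of the 72 genes (70.8%, beside 38.3% of all genes). Of these, 1 was higher and 50 were lower in Pck1-CKO, where 16.4% of all genes were lower without overlap. For the 46 genes with symbols that begin with Nduf, which encode complex I subunits and assembly factors, the median change was -0.013, which turned to 0.062 with the array median as scale. Just 1 of them was called (2.17%, beside 8.04% of all genes), Ndufaf4, which was higher by 0.32. Its adjusted p was 0.0960 to 0.119 without WT 1, WT 2, Pck1-CKO 1 or Pck1-CKO 2. The median deviation of the Nduf genes was -0.011, -0.0039 and 0.00015 in Pck1-CKO, against -0.017, -0.036 and 0.064 in WT. WT 3 was the highest WT array for 43 of these 46.

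Several members have more than 1 probe, and the probe with the highest mean signal stands for the gene. The 80 members have 109 probes, all past the filter: 56 members have 1, 19 have 2 and 5 have 3. Of the 24 members with several, 17 had probes with changes of the same sign and 7 had probes of opposite sign, namely Mrpl1, Mrpl21, Mrpl48, Mrpl58, Mrps14, Mrps21 and Mrps5. In a fit over 25516 named probes, of which 6.02% were called, the dimmest of the 3 probes of Mrpl48 was called lower. It had levels of -2.64, -2.74 and -2.66 in Pck1-CKO, against -2.31, -2.29 and -2.09 in WT (-0.45 ± 0.073, adjusted p = 0.0348). The other Mrpl48 probes gave -0.0090 and 0.036 and did not pass.

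Mrps17 had the reverse case. Its dimmer probe was at -0.31, -0.28 and -0.34 in Pck1-CKO, against -0.58, -0.65 and -0.53 in WT (0.28 ± 0.050, adjusted p = 0.0406). Its brighter probe, which stands for the gene, gave 0.091 ± 0.057 and did not pass (adjusted p = 0.335). For Mrps14 the 2 probes gave -0.0022 and 0.18, for Mrps5 0.052 and -0.032, and for Mrpl1 -0.0065 and 0.047. The 3 probes of Mrps21 gave -0.0056, -0.015 and 0.028. None of these passed.

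Lists of genes that act with the ribosome are set beside 8.04% of all genes called and 31.2% at an unadjusted p below 0.05. In a list of 28 genes for ribosome assembly and ribosomal RNA maturation, 0 passed by limma, with 7 higher and 0 lower (25%) at an unadjusted p below 0.05, and the median change was 0.057. After quantile normalization 1 was called higher, Mrm2, and with the array median as scale 8 were, while that scale called 17.5% of all genes. Mrm2, a methyltransferase of the large ribosomal RNA, was nearest, at -0.46, -0.46 and -0.54 in Pck1-CKO, against -0.64, -0.72 and -0.71 in WT (0.21, adjusted p = 0.0523). Gtpbp6, a ribosome recycling factor, had a change of 0.23 (adjusted p = 0.0764). Trub2, a pseudouridine synthase, had a change of 0.14 (adjusted p = 0.0746) with its brightest probe and of -0.083 with its dimmest. Of 3 ribosome proteins with other names, none passed, with 0.10 for Gadd45gip1, 0.034 for Ptcd3 (-0.0029 after quantile normalization) and -0.014 for Aurkaip1 (0.062 with the array median as scale).

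Trmt10c, a subunit of mitochondrial RNase P and a transfer RNA methyltransferase, was the 1 gene called in a list of 19 for mitochondrial transcription and RNA processing (5.26%, beside 8.04% of all genes). Its levels were -0.72, -0.73 and -0.75 in Pck1-CKO, against -1.01, -0.97 and -1.15 in WT, without overlap. It was 0.31 ± 0.057 higher (adjusted p = 0.0379), and the list's median was 0.041. That median was 0.0021 after quantile normalization, with 10 of 19 above 0, and 0.12 with the array median as scale, with 2 called. Polg, the mitochondrial DNA polymerase, had a change of 0.21 (adjusted p = 0.0683) with its brightest probe and of -0.20 with its dimmest. Without WT 1, WT 2 or any 1 of the Pck1-CKO arrays Trmt10c was not called (adjusted p 0.0569 to 0.140, change 0.30 to 0.35). Grsf1, an RNA granule protein, had a change of 0.15 (adjusted p = 0.191).

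Of 13 translation factors and membrane insertion genes 0 passed, with 2 higher and 0 lower (15.4%) at an unadjusted p below 0.05. The median was 0.087, with 0.042 after quantile normalization and 0.16 with the array median as scale, where 2 were called higher. Letm1, a cation exchanger that also binds mitochondrial ribosomes, had a change of 0.14 (adjusted p = 0.0784). The values were 0.20 for Taco1, a translational activator of cytochrome oxidase subunit I (adjusted p = 0.110), and 0.10 for Gfm2, a recycling factor. Among 9 factors known to bind nuclear mitochondrial genes 0 passed, with 2 higher and 1 lower (33.3%) at an unadjusted p below 0.05, and with the array median as scale 2 were called higher. Pprc1, a PGC-1 related coactivator, just missed, at 0.25, 0.16 and 0.089 in Pck1-CKO, against -0.23, -0.25 and -0.61 in WT (0.53 ± 0.11, adjusted p = 0.05004). Ppargc1a, which encodes PGC-1α, had a change of -0.20 (adjusted p = 0.0970) and Esrra one of 0.20 (adjusted p = 0.103). Neither gene's groups overlapped.

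A RefSeq window around the start was matched for 70 of the 80 members. Mrpl4, Mrpl13, Mrpl15, Mrpl19, Mrpl38, Mrpl54, Mrps28, Mrps34, Mrps35 and Dap3 were not matched. Each motif was searched as exact letters on both strands, and a match describes the letters and is not a measured site. The ETS letters CCGGAAG occurred in 26 of 70 members (37.1%), beside 16.2% of 13511 tested genes with a window and 8.86% of all 32851 windows. AAGATGG, the YY1 letters, occurred in 13 members (18.6%), beside 7.75% of tested genes and 6.34% of all windows. The NRF1 letters GCATGCGC occurred in 8 members (11.4%), beside 4.87% of tested genes and 2.71% of all windows. Those 8 were Mrpl9, Mrpl10, Mrpl17, Mrpl22, Mrpl32, Mrpl33, Mrpl39 and Mrps18b. Counted by window, the members' shares were 34.2% for the ETS, 17.1% for the YY1 and 10.5% for the NRF1 letters.

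At least 1 of these 3 motifs lay in 38 members (54.3%), beside 25.9% of tested genes. The GC box GGGCGG went the other way, with 34 members (48.6%) beside 59.9% of tested genes. The CCAAT letters were in 38.6% of members and 42.0% of tested genes, and TATAAA in 7.14% and 10.9%. The median GC content was 58.8% for the members' windows and 59.0% for those of tested genes. By subunit, the ETS letters were in 35.6% of large-subunit and 41.7% of small-subunit members, and the GC box in 37.8% and 66.7%. The YY1 letters were in 17.8% and 20.8%. The NRF1 letters were in 15.6% of large-subunit members but in 4.17% of small-subunit members, beside 4.87% of tested genes.

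**Figure D5:**
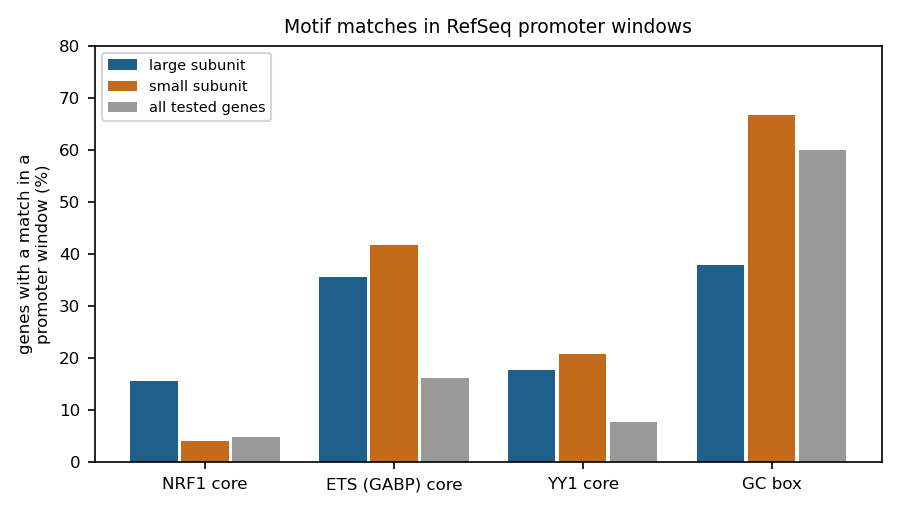
Share of genes with each motif in a promoter window (percent, vertical axis) among 45 large-subunit members, 24 small-subunit members and 13511 tested genes. The ETS and YY1 letters have a higher share in both subunits than in tested genes, and the GC box bar is higher in the small subunit than in the large one.

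The changes differed little by motif. Members with the YY1 letters had a median change of 0.079 and those without a median of 0.041. With the NRF1 letters the median was 0.063, and without them 0.044. For the ETS letters the values were 0.048 with and 0.046 without. Starts that lie head to head with another gene's were counted too: 26 of 70 members (37.1%) had the start of an opposite-strand gene at most 1000 bases upstream, beside 17.1% of tested genes. Mrpl46 and Mrps11 lie head to head 42 bases apart, with changes of 0.015 and 0.11 that did not pass. In 24 distinct pairs with a tested partner, 16 had changes of the same sign. Only 1 partner was called, Ppp1r10, a phosphatase regulatory subunit whose start lies 756 bases from that of Mrps18b (0.66, adjusted p = 0.0328). It was called only with all arrays or without WT 3, and its change was 0.58 to 0.78 in the fits that left out 1 array.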

How the data were processed

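Whole-kidney RNA was read on Agilent arrays with 1 dye, Cy3, per the labels' protocols. The deposited intensity values come from Agilent Feature Extraction, version 10.7.1.1 by the submitters' processing notes, and the processed signal is background-subtracted and spatially detrended, per the file headers. The deposited value table is a ratio, the processed signal over 1 factor per array, with column medians of 0.099, 0.097 and 0.098 for Pck1-CKO and 0.104, 0.103 and 0.102 for WT. It was used as an alternative.

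From the files, control spots and outlier-flagged spots (46 to 94 per array) were dropped, replicate spots were averaged for each probe, and log2 of the processed signal minus the 75th percentile of each array was taken. Of 56605 probes, 34675 had 1 symbol by their RefSeq accession and 21930 had none here, so genes read only by those are not analysed. A probe was kept if 3 or more arrays of the 6 flagged it well above background, and the brightest probe stood for a gene, which left 17135 genes. No probe was saturated. Genes were tested with limma 3.58.1 in R 4.3.3 (lmFit and eBayes, no covariates, two-sided), with Benjamini-Hochberg adjustment over all genes and a threshold of 0.05. The code was tested on simulated data.

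The members, the gene lists and the subunit assignments, the last from knowledge of the structure, were chosen with earlier results of these data known. Genes named are Pck1, members past the threshold, in each subunit the 3 highest and 3 lowest changes, members with a role of their own, members whose probes disagreed, and up to 3 genes with the lowest p in each other list; members whose groups did not overlap, and Mrps17, Mrps23, Mrpl46, Ndufaf4 and Ppp1r10, were named after their values were seen. Alternatives changed the scaling, the background correction, the dim-probe filter, the probe rule, the variance model and the arrays kept.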

Additional observations from a re-analysis of the deposited data

How the results depend on the processing

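The number of calls and the subunit medians depended on the settings. Over all genes, 2434 were higher and 560 lower with the array median as scale, 61 and 81 without the dim-probe filter, 344 and 364 with the dimmest probe, 1682 and 1149 with a trended robust variance, and 3286 and 2614 with array weights. Called members numbered 9 higher and 0 lower, 1 and 0, 1 and 1, 8 and 1, and 21 and 1 in that order. Those counts are out of 80 members, and the shares of all genes called were 17.5%, 0.597%, 4.13%, 16.5% and 34.4%. Leaving out 1 array gave 16 to 779 genes higher and 9 to 806 lower, and 0 to 3 members higher and 0 to 1 lower. The replicate numbers did not pair the arrays, with correlations of same-numbered deviations of -0.0010, -0.11 and -0.023. With the number as a block, 3 genes were higher and 1 lower, and 0 members were called in either direction. With the array median as scale, which moved the median of all genes to 0.085, the large-subunit median was 0.10 and the small-subunit median 0.14. With the dimmest probe the difference between subunits, large minus small, was -0.063. The cause of these differences was not tested.

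Among all 80 members, 17 changes turned sign with the array median as scale and 15 after quantile normalization. Values are given here for the genes the text names by its rule. With the array median as scale they were 0.036 for Mrpl41, 0.014 for Dap3, 0.022 for Mrps18c, 0.037 for Mrps25, 0.069 for Mrpl1, 0.067 for Mrpl48, 0.074 for Mrps14, 0.070 for Mrps21 and 0.062 for Aurkaip1. Quantile normalization gave -0.019 for Mrpl58, -0.015 for Mrpl21 and -0.0029 for Ptcd3, and normexp -0.0018 for Mrpl58. The mean over probes gave -0.00031 for Mrpl58, 0.020 for Mrpl1, 0.089 for Mrps14 and 0.0022 for Mrps21. The dimmest probe gave -0.016 for Mrpl58, 0.047 for Mrpl1, -0.017 for Mrpl21, 0.18 for Mrps14, 0.028 for Mrps21, -0.032 for Mrps5, -0.20 for Polg and -0.083 for Trub2. Array weights gave 0.0070 for Mrpl48, 0.024 for Mrps14, 0.032 for Mrps21 and 0.0064 for Aurkaip1. Over the fits that left out 1 array, the range was -0.085 to 0.0018 for Mrps18c, -0.033 to 0.012 for Mrpl1, -0.024 to 0.015 for Mrpl48, -0.029 to 0.023 for Mrps14, -0.038 to 0.052 for Mrps21 and -0.034 to 0.0100 for Aurkaip1.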
